A study of Drosophila melanogaster with 6 samples.

Results

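Transcripts of 7 genes that bring light to the fly's circadian clock or act beside its core loop were followed in heads of female Drosophila melanogaster: cry, jet, gl, dco, kis, Fer2 and Pdfr. The members were all probe sets annotated with exactly 1 of these symbols, and each gene had 1, so 7 of 11982 genes with such a probe set, and 7 of 18769 tested probe sets, are described. The RNAi label of one strain is Tim-Fbl, with 1 Affymetrix array at ZT15 and 1 at ZT3; that of the other is control, with 2 arrays at ZT15 and 2 at ZT3. ZT is zeitgeber time, counted in hours from lights-on, so ZT15 lies in the early night and ZT3 in the morning. All flies were kept at 25 °C. The driver of the RNAi, the control's genotype and the flies' age are not given in the sources used here, nor is it said whether the control replicates came from separate cultures, so the p-values rest on a spread between samples that may be technical.

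The fly clock is a feedback loop in which the PER and TIM proteins shut off the factors that transcribe their genes. Light resets it through cryptochrome, the product of cry, which absorbs blue light and then binds TIM, so that the F-box protein JETLAG, the product of jet, can direct TIM to the proteasome. Glass, encoded by gl, is a zinc finger transcription factor that photoreceptors and a group of dorsal clock neurons need to form. The dco gene encodes DOUBLETIME, a casein kinase 1 that phosphorylates PER. The kis product, Kismet, is a chromodomain chromatin remodeller that has been linked to the clock's response to light. Fer2 encodes a basic helix-loop-helix factor needed by the small ventral lateral neurons, and Pdfr encodes the receptor through which clock neurons read the neuropeptide PDF.

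Values are log2 expression as deposited, after RMA, and a difference of 1 on this scale is a doubling. Array medians lay between 5.46 and 5.51 and lower quartiles between 3.99 and 4.16, where signal is near the floor. The label was checked on fbl, which read 7.49 at ZT15 and 7.47 at ZT3 in Tim-Fbl, against 9.11 to 9.28 on the 4 control arrays. Head tissue was checked on the neuronal gene elav, the glial gene repo and the photoreceptor gene Arr1, whose means over the 6 arrays were 10.2, 10.1 and 13.8. The Tim-Fbl ZT15 array stood apart in its poly-A spike-in controls, with a median of 6.76 over 12 probe sets, against 5.22 to 5.89 on the control arrays. Probe sets for 18S rRNA had medians of 11.8 at ZT15 and 11.5 at ZT3 in Tim-Fbl, against 11.4 on control ZT15 replicate 2 and 12.3 to 12.7 on the other control arrays. Both measures' part in the results was not tested.

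The first comparison set ZT15 against ZT3 in controls and asked which of these genes differ between early night and morning. At ZT15 cry was 2.11-fold lower and gl was 1.84-fold higher, and the other 5 genes did not pass the test. The 2 genes called were 1 higher and 1 lower, or 2 of 7, where 0.703% of all 18769 probe sets were called, 0.314% higher and 0.389% lower. At an unadjusted p under 0.05 in limma stood the same 2 of 7 and 3238 of all 18769 probe sets. Later counts of that kind for time in controls are to be set beside this share. The median difference of the 7 was 0.01, against -0.01 over all probe sets and 0.06 over the 10479 with a mean log2 of at least 5, a level that all 7 reach.

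The cryptochrome gene cry had levels of 9.04 and 8.71 in controls at ZT15, against 9.96 and 9.94 in controls at ZT3. Both night arrays lay below both morning arrays. The means were 8.88 ± 0.233 at ZT15 and 9.95 ± 0.0097 at ZT3 (SD, n = 2 each). The difference was -1.07 ± 0.12 (SE, 95% confidence interval -1.37 to -0.78, limma adjusted p = 0.0231), and it stood 55th of 18769 by the size of its moderated statistic. Without control ZT3 replicate 1 or 2 it was -1.07 or -1.08, almost unchanged in size, but was no longer called. In those fits the residual spread came from the control ZT15 pair alone, so the lost call is not a loss of size. The size moved more with the night arrays: without control ZT15 replicate 1 or 2 it was -1.24 or -0.91.

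The transcription factor gene gl moved the opposite way. Its levels were 9.31 and 9.22 in controls at ZT15, against 8.49 and 8.28 in controls at ZT3. The groups did not overlap. The means were 9.27 ± 0.061 at ZT15 and 8.38 ± 0.151 at ZT3 (SD, n = 2 each), a difference of 0.88 ± 0.11 (SE, interval 0.63 to 1.13, limma adjusted p = 0.0261), 64th of 18769. Without control ZT3 replicate 2, the lower of the morning arrays, the difference was 0.77 and did not pass (adjusted p = 0.122). In whole heads a higher level per cell and a larger share of RNA from the cells that express a gene cannot be told apart. Of the photoreceptor markers 4 of 7 were measured, and their summed level was 15.56 and 15.62 on the log2 scale in controls at ZT15, against 15.44 and 15.34 at ZT3. Sums of markers were formed from unlogged values, so the brightest weigh most. Here these were Arr2 and Arr1, with means of 14.3 and 13.8, against 12.5 for trp and for chp. None of the 4 passed on its own in limma. At an unadjusted p under 0.05 stood 2 of them, and 3238 of all 18769 probe sets. The part of these markers in the gl difference was not tested.

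**Figure D1:**
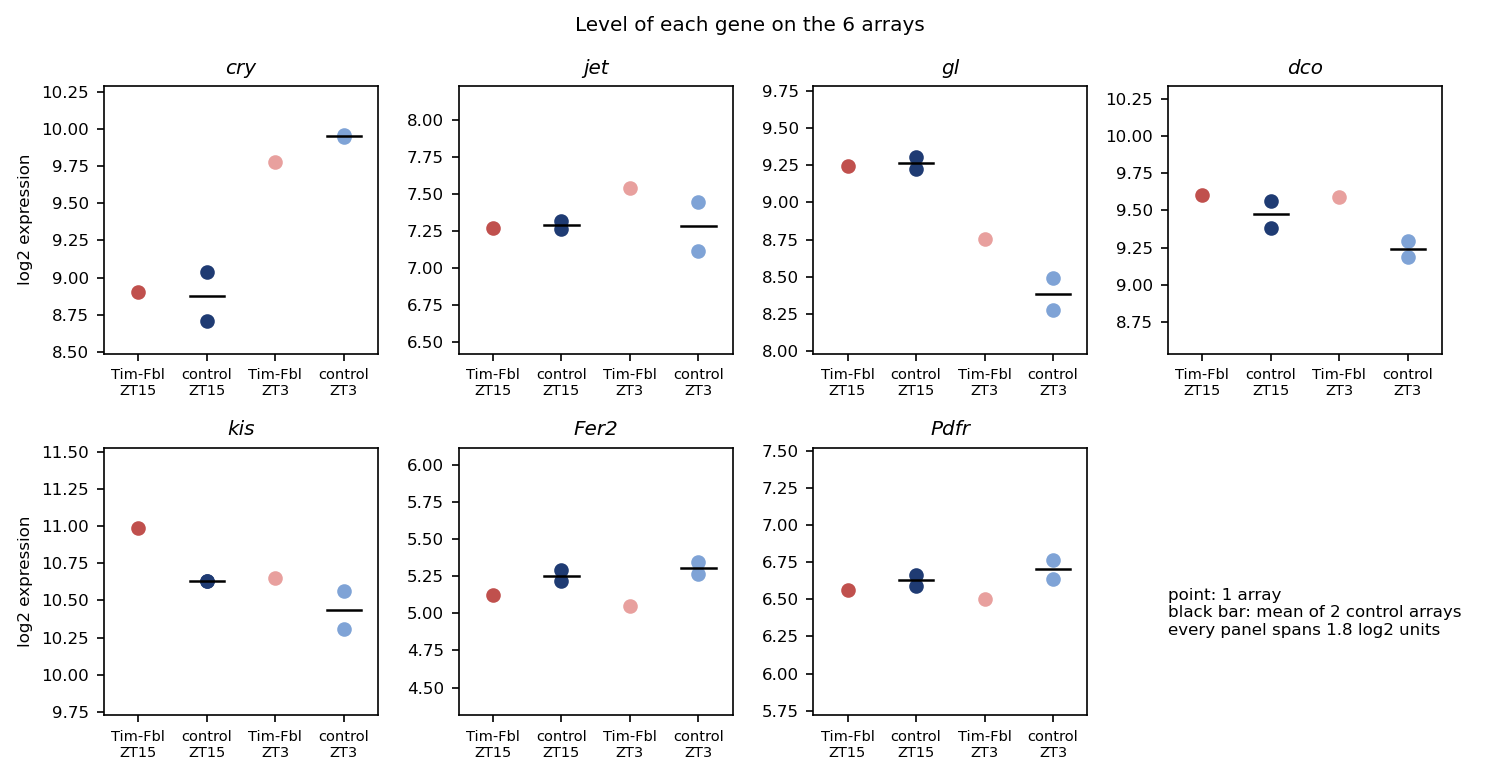
Log2 expression (vertical axis) of each of the 7 genes on every array, grouped by strain and time along the horizontal axis; a point is 1 array, a black bar the mean of 2 control arrays, and every panel spans the same range. For cry the 3 ZT15 arrays lie below the 3 ZT3 arrays and for gl above them. The values of jet, dco, Fer2 and Pdfr span 0.26 to 0.42 log2 units over all 6 arrays.

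Among the kinase and chromatin genes, dco and kis had higher night than morning arrays in controls but did not pass. The kinase gene dco had 9.38 and 9.56 in controls at ZT15, against 9.30 and 9.19 at ZT3, a difference of 0.23 ± 0.10 (SE, interval -0.01 to 0.48, limma adjusted p = 0.31). The remodeller gene kis had 10.63 and 10.63 at ZT15, against 10.57 and 10.31 at ZT3, a difference of 0.19 ± 0.11 (interval -0.07 to 0.46, limma adjusted p = 0.404). In both genes the groups did not overlap, as in 4 of the 7 members and in 52.2% of all probe sets, so this separation is common in these arrays.

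The F-box gene jet, whose product acts with cryptochrome, had overlapping levels of 7.26 and 7.32 in controls at ZT15, against 7.44 and 7.12 at ZT3. Its difference was 0.01 ± 0.12 (SE, interval -0.29 to 0.31, limma adjusted p = 0.975), and it turned negative after quantile normalization (-0.10) and cyclic loess (-0.10). This interval does not reach the size of the cry difference in either direction. The receptor gene Pdfr had 6.66 and 6.59 at ZT15, against 6.64 and 6.77 at ZT3, with a difference of -0.08 ± 0.09 (interval -0.30 to 0.15, adjusted p = 0.702). Fer2 had 5.29 and 5.22 at ZT15, against 5.27 and 5.35 at ZT3. Its difference was -0.05 ± 0.09 (interval -0.27 to 0.16, limma adjusted p = 0.794), and at this level, near the floor, RMA compresses differences.

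The time difference was next examined within Tim-Fbl, with 1 array per time, for which the spread of the control pairs had to stand in. The cry level was 8.91 on the Tim-Fbl ZT15 array, against 9.78 on the Tim-Fbl ZT3 array. The difference of -0.87 ± 0.18 (SE, interval -1.29 to -0.45) had the sign of the control difference but did not pass (limma adjusted p = 0.29). The gl level was 9.25 at ZT15, against 8.76 at ZT3, a difference of 0.49 ± 0.15 (interval 0.13 to 0.85, adjusted p = 0.606). None of the 7 passed, with 2 of 7, cry and gl, at an unadjusted p under 0.05; of all probe sets 0.165% passed and 6.61% had such a p.

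The other genes in Tim-Fbl had differences whose intervals included 0. The kis level was 10.99 at ZT15, the highest of its 6 arrays, against 10.65 at ZT3, a difference of 0.34 ± 0.16 (interval -0.03 to 0.71). For jet the levels were 7.27 at ZT15 and 7.54 at ZT3 (-0.27 ± 0.18, interval -0.69 to 0.14). At ZT15 and ZT3 dco had 9.61 and 9.59, a difference of 0.02, while Fer2 had 5.12 and 5.05 (0.07) and Pdfr 6.56 and 6.50 (0.06). With both strains together, the 3 ZT15 arrays did not overlap the 3 ZT3 arrays in 2 of the 7 members, cry and gl, and in 12.6% of all probe sets. In a model with strain and time as separate terms over all 6 arrays the time difference was -1.01 ± 0.10 for cry (SE, limma adjusted p = 0.00976) and 0.75 ± 0.11 for gl (adjusted p = 0.0326).

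Whether the time difference itself differed between strains was tested as the interaction, the difference in Tim-Fbl minus that in controls. For gl it was -0.39 ± 0.18 (SE, interval -0.83 to 0.05, limma adjusted p = 0.842), and for cry 0.20 ± 0.21 (interval -0.31 to 0.71, adjusted p = 0.875). For jet it was -0.28, for dco -0.21, for kis 0.15, for Fer2 0.12 and for Pdfr 0.14, with adjusted p between 0.848 and 0.90. None of the 7 passed, and 0 had an unadjusted p under 0.05 in limma; of all probe sets 0.0373% passed and 5.4% had such a p. The cry interval covers both no change and a time difference smaller in Tim-Fbl by over 0.5 log2 units, so these arrays cannot tell those apart.

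**Figure D2:**
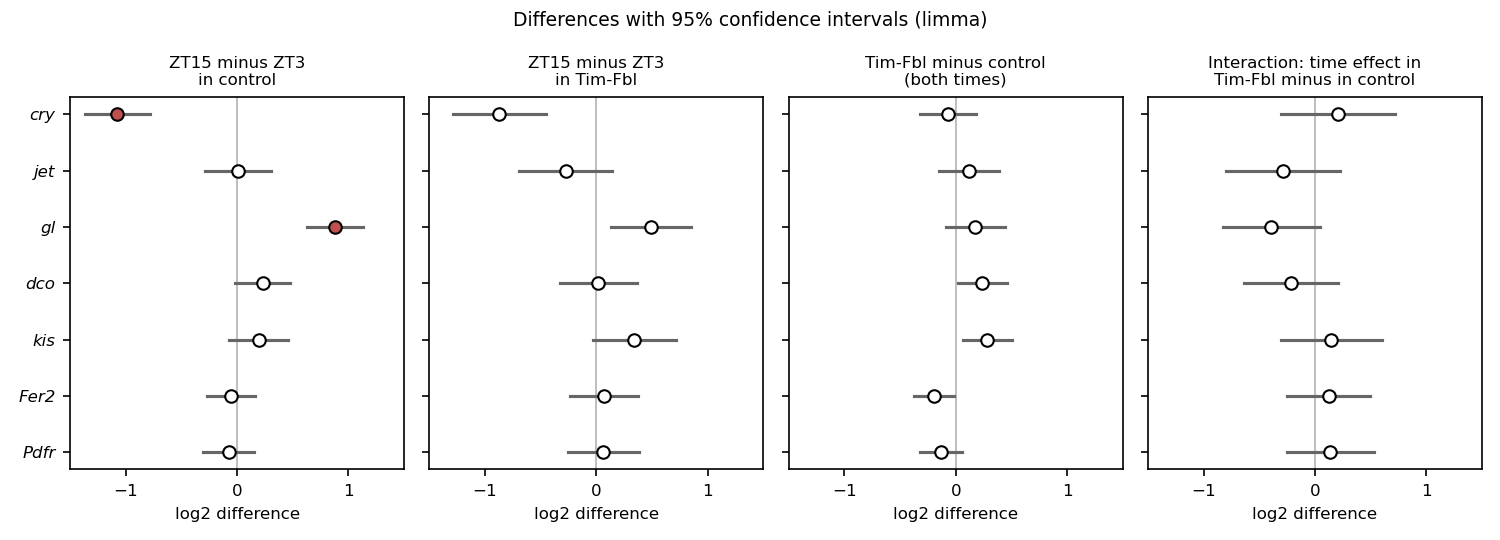
Log2 difference (horizontal axis) of each gene in 4 comparisons, from left to right ZT15 minus ZT3 in control, ZT15 minus ZT3 in Tim-Fbl, Tim-Fbl minus control over both times, and the interaction. Lines are 95% confidence intervals and filled points passed at an adjusted p under 0.05, which holds for cry (-1.07) and gl (0.88) in the first comparison alone.

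Tim-Fbl was then set against control, over both times together, to ask whether any of the 7 differed with strain. None passed in limma, where 8.79% of all probe sets did. At an unadjusted p under 0.05 stood 3 of 7, dco, kis and Fer2, against 29.1% of all probe sets. Later counts of both kinds for strain are to be set beside these shares. The median of the 7 was 0.12, against -0.03 over all probe sets and 0.07 over those with a mean log2 of at least 5.

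The largest strain difference was that of kis. In Tim-Fbl it read 10.99 at ZT15 and 10.65 at ZT3, against 10.63, 10.63, 10.57 and 10.31 on the control arrays. Both Tim-Fbl arrays lay above all 4 controls, the ZT3 array only just. The difference was 0.29 ± 0.09 (SE, interval 0.07 to 0.51, limma adjusted p = 0.10), and within each time it was 0.36 at ZT15 and 0.21 at ZT3.

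The kinase gene dco had 9.61 at ZT15 and 9.59 at ZT3 in Tim-Fbl, against 9.56, 9.38, 9.30 and 9.19 on the control arrays, again without overlap. Its difference was 0.24 ± 0.09 (SE, interval 0.02 to 0.46, limma adjusted p = 0.14). Its probe set carries the manufacturer's suffix for sequence shared with other transcripts, so it may also read those. Markers of neurons, of which 4 of 6 were measured, had a summed log2 level of 11.16 at ZT15 and 10.90 at ZT3 in Tim-Fbl, against 10.54 to 11.03 on the control arrays. The brightest of these markers, elav, weighs most in the sum. None of these 4 passed in the strain or the time comparison in limma. At an unadjusted p under 0.05 stood 2 for strain and 3 for time. Of all 18769 probe sets 5457 and 3238 had such a p. The part of these markers in the dco and kis differences was not tested.

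Fer2 and Pdfr were lower on both Tim-Fbl arrays than on all 4 control arrays, and neither passed. Fer2 had 5.12 and 5.05 in Tim-Fbl, against 5.22 to 5.35 in controls (-0.19 ± 0.08 SE, interval -0.37 to -0.01, limma adjusted p = 0.152). Pdfr had 6.56 and 6.50, against 6.59 to 6.77 (-0.13 ± 0.08, interval -0.32 to 0.06, adjusted p = 0.315). In all, 4 of the 7 members did not overlap between strains, 2 above and 2 below, against 36.4% of all probe sets, 16.5% above and 19.9% below.

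For cry, jet and gl the strain difference did not pass. It was -0.07 ± 0.11 for cry (SE, interval -0.32 to 0.18, limma adjusted p = 0.688), with 0.03 at ZT15 and -0.17 at ZT3. The Tim-Fbl cry level at ZT15 fell between the control arrays of that time. For jet it was 0.12 ± 0.11 (interval -0.15 to 0.39, limma adjusted p = 0.513). For gl it was 0.18 ± 0.11 (interval -0.09 to 0.44, adjusted p = 0.333), and it came from the morning: -0.02 at ZT15 and 0.37 at ZT3, a split that the interaction did not call. Markers of eye pigment cells, with 4 of 5 measured, had a summed log2 level of 11.41 at ZT15 and 11.81 at ZT3 in Tim-Fbl. In controls the sum was 13.78 to 14.22, most of it from Pdh, the brightest of these markers. Of them 3 fell (Pdh, se and pr, the last not without the Tim-Fbl ZT3 array, at -0.53) and santa-maria did not pass; the photoreceptor markers, summing to 15.43 and 15.45 in Tim-Fbl and 15.34 to 15.62 in controls, had 0 of 4 called. The part of either list in the gl values was not tested.

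The levels of each gene can be ordered over the 4 groups. For cry the order was control at ZT15 (8.88), Tim-Fbl at ZT15 (8.91), Tim-Fbl at ZT3 (9.78) and control at ZT3 (9.95). The pair at ZT15 differed by less than the spread of the control arrays, while the Tim-Fbl array at ZT3 lay 0.17 under the control mean, a difference that was not tested on its own. For gl it was control at ZT3 (8.38), Tim-Fbl at ZT3 (8.76), Tim-Fbl at ZT15 (9.25) and control at ZT15 (9.27), and the pair at ZT15 differed by less than the spread of the control arrays. For kis and dco the control ZT3 arrays were lowest on average and the Tim-Fbl ZT15 array highest, and for Fer2 and Pdfr the Tim-Fbl ZT3 array was lowest and the control ZT3 arrays highest.

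The genes with a pattern most like that of a member were sought over the 6 arrays by Pearson's r, for members whose values spanned at least 0.5 log2 units, which were cry, gl and kis. The arrays fall into 2 times, which all these genes share, so r describes likeness and has no test. The direction of these genes over the arrays follows from that choice and is given as a description. Closest to cry were Ugt49C1 (r = 0.994), a UDP-glycosyltransferase gene, Cyp305a1 (r = 0.992), a cytochrome P450 gene, CG4914 (r = 0.992), GV1 (r = 0.991) and Cdc6 (r = 0.979), a replication licensing factor. Ugt49C1 had 8.81 at ZT15 and 9.46 at ZT3 in Tim-Fbl. In controls it had 8.76 and 8.60 at ZT15, against 9.62 and 9.60 at ZT3. It was thus lower at night in both strains, as cry was. For ZT15 minus ZT3 in controls, 4 of the 5 lay between -0.93 (Ugt49C1) and -0.61 (GV1), while Cdc6 had a larger difference and was near the floor at ZT15.

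Closest to gl were M7BP (r = 0.995), ort (r = 0.995), which encodes a histamine-gated chloride channel that receives the photoreceptors' signal, retn (r = 0.995), an ARID-domain transcription factor gene, CG10283 (r = 0.995) and vri (r = 0.994), a clock repressor gene. In Tim-Fbl ort had 8.11 at ZT15 and 7.37 at ZT3. In controls it had 8.07 and 8.01 at ZT15, against 6.98 and 6.53 at ZT3. As for gl, the lowest of the 6 was control ZT3 replicate 2 and the Tim-Fbl ZT3 array was the highest of the morning. The 5 ranged from 0.71 (CG10283) to 3.03 (vri) for ZT15 minus ZT3 in controls. M7BP had 1.61 at this probe set and 0.47 averaged over its probe sets. Of 2630 candidate probe sets 141 had r over 0.9 with gl, so many share this pattern. With cry 42 of 1492 had such an r.

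For kis the closest were CG32100 (r = 1.00), CG18259, CG14073, Fmr1, which encodes an RNA-binding protein of neurons, and Kif3C, a kinesin gene (each r = 0.995 to 0.997). Fmr1 had 9.22 and 8.83 on the Tim-Fbl arrays at ZT15 and ZT3. In controls it had 8.87 and 8.86 at ZT15, against 8.77 and 8.54 at ZT3. In each of these genes, as in kis, the Tim-Fbl ZT15 array was highest and control ZT3 replicate 2 lowest. The Tim-Fbl ZT15 array is the one with the high spike-in signal, and its part in this pattern was not tested. Of 6898 candidate probe sets 489 had r over 0.9 with kis, so this pattern too is shared by many.

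**Figure D3:**
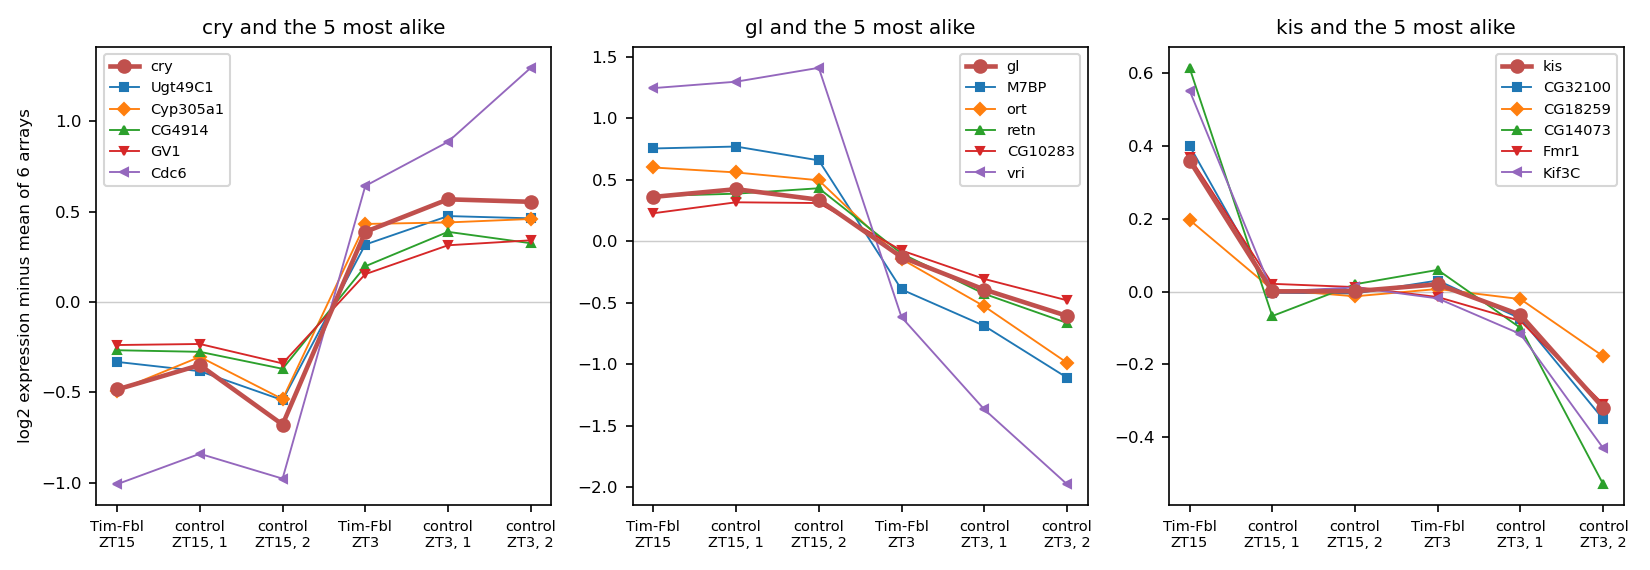
Log2 expression minus each gene's mean over the 6 arrays (vertical axis) on every array (horizontal axis) for cry, gl and kis (thick lines) and the 5 genes most like each; lines join the points of 1 gene and carry no order among replicates. The cry and gl sets separate ZT15 from ZT3, whereas in the kis set the Tim-Fbl ZT15 array is highest and control ZT3 replicate 2 lowest.

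Other genes of the same pathways were read from lists. Of the core clock genes, 7 of 7 measured, 4 rose at ZT15 in controls (vri, per, tim and Pdp1), 1 fell and 2 did not pass; the median was 1.00. The one that fell was Clk, at -1.37. The gl difference of 0.88 was close in size to that of Pdp1, an activator of Clk (1.00 ± 0.09 SE, adjusted p = 0.0099), which did not pass without control ZT3 replicate 2 (0.95). The cry difference had the sign of the Clk difference, and Clk is known to peak in the morning as cry does. In Tim-Fbl, per, tim and Clk passed (2.07, 2.61 and -1.60), although tim and Clk did not with dim probe sets left out (each adjusted p = 0.065), and vri had 1.86 without passing (adjusted p = 0.103). In the interaction 0 of 7 passed in limma and all 7 lay below 0. Of all probe sets 46.4% lay above 0, and 39.1% of those with a mean log2 of at least 5. The median of the 7 was -0.22, against -0.02 over all probe sets and -0.06 over those with such a mean. The shared sign is not 1 kind of change. For Clk, lower at ZT15, it is a larger time difference in Tim-Fbl (-1.60, against -1.37 in controls). Of the 7, vri (-1.16) and per (-0.61) had an unadjusted p under 0.05 (limma adjusted p = 0.842 for each). In the strain comparison 0 of 7 passed in limma, and 0 had an unadjusted p under 0.05. A second, dimmer tim probe set had 0.36 for strain (unadjusted p = 0.0385, limma adjusted p = 0.15), against 0.07 at the one read.

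Around the PDF receptor, 6 of 9 listed signalling genes were measured. At ZT15 in controls 1 of these rose, Epac, which encodes an exchange factor for Rap1 that is switched on by cyclic AMP, the messenger of Pdfr. Epac had 8.36 at ZT15 and 7.34 at ZT3 in Tim-Fbl. In controls it had 8.40 and 8.48 at ZT15, against 7.28 and 7.34 at ZT3. The groups lay far apart, and the control difference was 1.13 ± 0.09 (SE, limma adjusted p = 0.00477). A second Epac probe set, with a mean of 4.09 near the floor, differed by -0.16 without passing, and the mean over both gave 0.49 (adjusted p = 0.0746). The ligand gene Pdf differed by 0.17 ± 0.09 (limma adjusted p = 0.374), the cyclase gene rut by 0.37 and the phosphodiesterase gene dnc by 0.22, none passing. The list's median was 0.26, against 0.06 over all probe sets with a mean log2 of at least 5. At an unadjusted p under 0.05 in limma stood 4 of the 6, and 3238 of all 18769 probe sets.

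In the strain comparison 1 of these 6 rose, the adenylyl cyclase gene Ac78C. It had 7.71 at ZT15 and 7.42 at ZT3 in Tim-Fbl, against 6.90 to 7.36 on the control arrays (0.40 ± 0.09 SE, limma adjusted p = 0.0342). This call was lost in 8 of 15 alternatives, at 0.27 to 0.42, among them quantile normalization (0.27, adjusted p = 0.0862), cyclic loess (0.31) and leaving out either Tim-Fbl array, control ZT3 replicate 2 or either control ZT15 array. Pdf differed between strains by 0.16 ± 0.08 (limma adjusted p = 0.208). The list's median was 0.20, against 0.07 over all probe sets with a mean log2 of at least 5. At an unadjusted p under 0.05 in limma stood 3 of the 6, and 29.1% of all probe sets.

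Of the clock kinases, phosphatase subunits and protein degradation genes, 6 of 11 were measured. At the brightest probe set of each gene 0 passed in either comparison in limma. For strain 29.1% of all probe sets had an unadjusted p under 0.05 in limma. Of these 6 genes 3 had such a p for strain and 0 for time in controls. Their medians were 0.13 for time in controls and 0.14 for strain, against 0.06 and 0.07 over all probe sets with a mean log2 of at least 5, which all 6 have, and -0.01 and -0.03 over all 18769. Among them were slmb (0.15 for time) and Cul1 (0.18), which act in the breakdown of PER, Cul3 (0.05), and BRWD3 (0.19), which takes part in the breakdown of cryptochrome. For strain the phosphatase subunit genes tws and wdb had 0.26 ± 0.08 and 0.22 ± 0.07 (SE, limma adjusted p = 0.0824 and 0.0882). A second wdb probe set, with a mean of 3.78 under the floor, did pass, at 0.38 (limma adjusted p = 0.0492). Of 9 chromatin remodelling genes set beside kis, including brm (0.07 for strain) and mor (0.23), 0 passed for either comparison (2 at an unadjusted p under 0.05 in each), with medians of 0.18 for time and 0.19 for strain. For strain all 9 lay above 0, as did 60.8% of all probe sets with a mean log2 of at least 5, and nothing is read from that count.

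Of the photoreceptor genes set beside gl, 4 of 12 were measured and 0 passed in limma. These 4 are the same genes and probe sets as the 4 photoreceptor markers above, so their values are not a second line of evidence. At an unadjusted p under 0.05 in limma stood 2 for time in controls and 1 for strain, against 29.1% of all probe sets for strain. For ZT15 minus ZT3 in controls trp, a light-activated channel gene, had 0.51 ± 0.12 (SE, limma adjusted p = 0.134) and chp, which encodes chaoptin and is activated by Glass, 0.38 ± 0.09 (adjusted p = 0.133). Arr1 and Arr2, the arrestin genes, had 0.17 and 0.06. All 4 values were above 0 and below that of gl. Of all probe sets with a mean log2 of at least 5, 61.5% lay above 0, and nothing is read from the count. For strain the 4 ranged from -0.22 (chp) to 0.02 (Arr2).

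Of the pacemaker neuron genes set beside Fer2, 6 of 7 were measured, and 2 rose at ZT15 in controls, vri and Pdp1, which are also in the core clock list. The related factor genes Fer1 and Fer3 differed by -0.06 and -0.08, neither passing. A second Fer1 probe set had the opposite sign, at 0.06, and Fer3 had a mean of 4.55, under the floor used here. For strain 0 of the 6 passed in limma and 1 had an unadjusted p under 0.05, against 29.1% of all probe sets. The list's median for strain was 0.16.

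**Figure D4:**
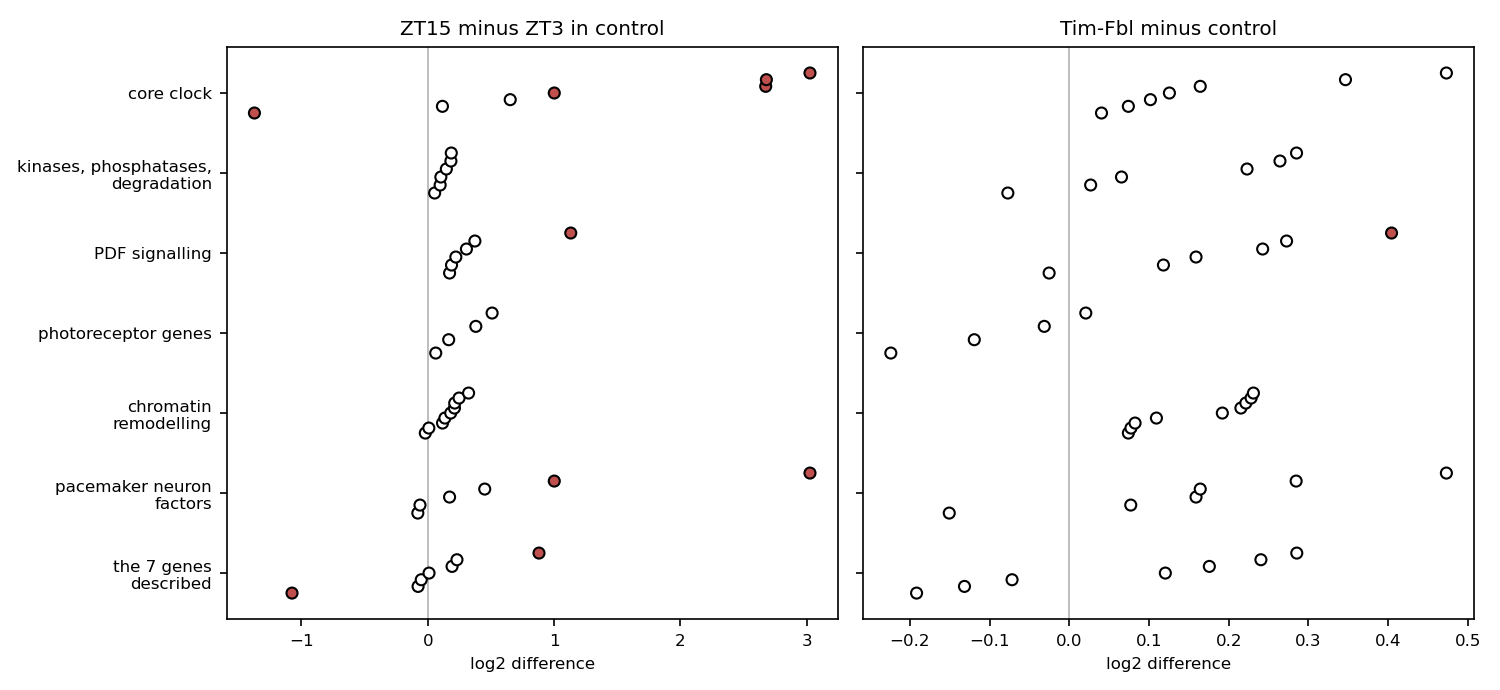
Log2 difference (horizontal axis) of every measured gene in 6 pathway lists and of the 7 genes described, for ZT15 minus ZT3 in control on the left and Tim-Fbl minus control on the right; a point is 1 gene, filled where it passed at an adjusted p under 0.05. On the left the filled points are 5 core clock genes, 2 of them also among the pacemaker neuron factors, Epac in PDF signalling, and cry and gl; on the right the filled point is Ac78C.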

How the data were processed

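Deposited values were taken as log2 from their range. The authors used RMA, per the submitters' processing notes; its version and the genome build are not given in the sources used here. RMA makes the distributions of the arrays alike and hides any shift that all transcripts share. Of 18952 probe sets, 183 manufacturer's controls were left out. Symbols came from the platform annotation and were compared with RefSeq through gene identifiers.

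Tests used limma (3.58.1, R 4.3.3), and p-values were adjusted by Benjamini-Hochberg over 18769 probe sets, with a threshold of 0.05. Time effects and the interaction came from a fit of 4 group means to 6 arrays (2 residual degrees of freedom, all within control pairs). Strain was tested with time as a covariate (3 degrees of freedom). Tim-Fbl, with 1 array a time, was assumed to vary like the controls. For arrays, their number limits the precision. The functions were tested on simulated data.

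The members, lists and tests were chosen with earlier results of these data known. Named genes were the members, for each member spanning at least 0.5 the 5 single-symbol probe sets with the highest r (mean log2 of at least 5, SD at least 0.5 of the member's), and list genes with the largest statistics, with further list members for their role; a list gene with several probe sets was read at the brightest. Of 97 list entries 70 were measured; the others are not analysed here. Alternatives were a filter on a mean log2 under 5, other normalizations and variance models, probe set means, the replicate block, other models and leaving out each array. No sequences are shown, since none were among the sources used here. Figures were drawn with matplotlib 3.10.9.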

Additional observations from a re-analysis of the deposited data

Results flagged for a closer look

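Outside the gene measurements, the poly-A spike-in controls read 6.76 in the median at ZT15 in Tim-Fbl and 5.17 at ZT3 in Tim-Fbl, against 5.22 to 5.89 on the 4 control arrays. This signal was singled out because it lies above every control array. No group had the 4 arrays that a search for outlying values needs, and none of the 7 genes had a time difference in Tim-Fbl opposite to all control pairs.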

How the results depend on the processing

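Of 385 recomputed differences of the 7 genes, 372 kept their direction and side of the threshold, 3 were no longer called and 10 changed sign, none of these called. The 3 were cry and gl without control ZT3 replicates, given above. Part of the 385 could not differ. For time in controls, leaving out a Tim-Fbl array or using control arrays alone gives the same fit. Leaving out a control array cannot change the size in Tim-Fbl, nor can the filter and variance models change any size. Only cry and gl, for time in controls, were called at first, so most of the 372 were uncalled in both. The count is thus no measure of stability. In the time comparison in controls jet turned to -0.10 after quantile normalization, -0.096 after cyclic loess and -0.084 in the additive model, and leaving out 1 array gave -0.15 to 0.172, with -0.15 and -0.018 without control ZT3 replicate 2 and control ZT15 replicate 2; Fer2 turned to 0.0002 after quantile normalization. In the strain comparison jet turned to -0.012 after quantile normalization. Leaving out 1 array gave cry -0.173 to 0.0296, jet -0.0212 to 0.262 and gl -0.02 to 0.371 for strain, each turned without the Tim-Fbl ZT3 array. Counts over all probe sets moved more: for time in controls from 132 to 83 with dim probe sets left out and 214 with robust variances; for the interaction from 7 to 0 with dim probe sets left out and after quantile or cyclic loess normalization (596, 1079 and 1105 at an unadjusted p under 0.05); for time in Tim-Fbl from 31 to 2 with dim probe sets left out and 15 after quantile normalization. Leaving out 1 array gave 27 to 340 for time in controls, 395 to 1255 in place of 1650 for strain, 0 to 57 for the interaction and 23 to 62 for time in Tim-Fbl. Replicate numbers did not pair the control arrays: deviations of same-numbered arrays correlated at 0.0381, and with the replicate block the counts were 334, 1212, 23 and 71 for time in controls, strain, interaction and time in Tim-Fbl, with no member's call changed. The split of higher and lower calls for time in controls was 59 and 73, and 76 and 66 after median subtraction; for strain it was 1021 and 629, 1239 and 477 after median subtraction, and 689 and 593 after quantile normalization. The cause of these changes was not tested.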

Other observations

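Genes that overlap or adjoin the members in the RefSeq gene order were read as well, since signal or local differences could be shared along the chromosome. The gene vib, which overlaps cry, differed between ZT15 and ZT3 in controls by -0.17 (limma adjusted p = 0.35), and the other neighbour of cry, myd, by -0.13 (adjusted p = 0.489). The neighbours of gl, Nup43 and CG7675, differed by 0.08 and 0.17 (adjusted p = 0.72 and 0.397). No neighbour of the 7 genes passed for time. For strain, betaggt-I, a prenyltransferase subunit gene that overlaps jet, rose by 0.34 (adjusted p = 0.0462), Vha36-3, a proton pump subunit gene beside Pdfr, rose by 0.47 (adjusted p = 0.0116), and CG7675, beside gl, fell by 0.34 (adjusted p = 0.0433), while the members beside them did not pass.

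Markers of other cell types of the head were read for both comparisons. Between ZT15 and ZT3 in controls 0 of 5 glial, 0 of 5 fat body, 0 of 4 muscle and 0 of 6 hemocyte markers passed in limma, and 1 of all these, a muscle marker, had an unadjusted p under 0.05. In Tim-Fbl against control 1 of 5 glial markers rose (alrm, by 0.34), 1 of 4 muscle markers (Act88F, by 1.31), 2 of 6 hemocyte markers (Hml, by 0.71, and eater, by 0.65) and 0 of 5 fat body markers. Of all probe sets 8.79% were called for strain, and 29.1% had an unadjusted p under 0.05 in limma. Such a p had 4 of 5 glial, 1 of 4 muscle, 6 of 6 hemocyte and 0 of 5 fat body markers. The glial and hemocyte counts hold markers of both signs. None of these lists had a marker that passed as lower; the glial markers Gs2 and nrv2 had -0.27 and -0.16, the muscle markers Mlc2 and TpnC4 -0.07 and -0.10, and the hemocyte marker srp -0.19. The alrm and eater calls were each lost in 7 of 15 alternatives, and the Hml call without either Tim-Fbl array (0.58 without ZT3 and 0.85 without ZT15).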
